A study of Mus musculus with 12 samples.

Results

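Interferon regulatory factors (IRFs) are DNA-binding proteins that switch interferon genes and interferon-stimulated genes on or off. The 6 members described here are Irf1, Irf2, Irf3, Irf5, Irf7 and Irf9, the family genes other than Irf4 and Irf8 that were chosen by name, and they are 6 of 19938 genes measured. All 6 had a probe set carrying a single gene symbol, and the brightest was used where a gene had several, which applied to Irf1 with its 2 probe sets. The study measured RNA from sorted type 1 conventional dendritic cells (cDC1), which excel at showing engulfed antigen to CD8 T cells, on 12 Affymetrix arrays, and asked how cDC1 differ with and without CD40.

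All mice were naive C57BL/6 animals with both Cd40 alleles flanked by loxP sites (CD40flfl), the controls included. The 4 groups of 3 arrays were migratory cDC1 of skin-draining lymph nodes from Xcr1Cre+ CD40flfl mice, the same cells from Xcr1++ CD40flfl mice, spleen cDC1 from Xcr1Cre+ CD40flfl mice and spleen cDC1 from Xcr1++ CD40flfl mice. The groups are called lymph node Cre, lymph node control, spleen Cre and spleen control below. In Xcr1Cre+ mice 1 Xcr1 allele carries the Cre recombinase, so deletion was limited to cells that have expressed Xcr1. The labels give no age or sex and do not say whether an array holds 1 mouse or a pool, so each p-value reflects the spread among these arrays alone, which may be technical.

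By background knowledge, IRF3, IRF5 and IRF7 lie dormant in the cytoplasm until sensors of viral nucleic acid or Toll-like receptors lead to their phosphorylation, and IRF7 then drives most of the type I interferon output. Interferon acts through its receptor to assemble ISGF3, a complex that contains IRF9 and binds interferon-stimulated genes, Irf7 among them. IRF1 activates genes of antigen processing and of IL-12, and IRF2 competes with it for the same DNA sites and mostly represses. Dendritic cells that leave the skin mature as they migrate and enter the lymph node with their sensing and antigen-presenting programmes rearranged.

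Values are intensities on the linear scale, normalised by the submitters with RMA, a method that makes array intensities comparable. Differences are on the log2 scale, from limma, a linear model fitted over all 19938 genes. A gene was called at a Benjamini-Hochberg adjusted p under 0.05, with n = 3 arrays per group throughout. The arrays had median intensities of 66.1 to 74.4, and a background of 22.2 was set by the brightest value of 3 measured Y-linked genes. The 12 cDC1 markers checked lay above background on every array. In lymph node limma called 8 of the 12 lower in each genotype, with Clec9a and Tlr3 among them. It called 2 higher in Cre mice and 1 in control mice, with Batf3 higher in both. Over all genes, 15.2% were called lower in Cre mice and 13.2% in control mice. The summed intensity of the cDC1 markers was 15929 to 17414 on lymph node Cre and 16329 to 18511 on lymph node control arrays, against 33229 to 44008 on spleen Cre and 34403 to 43297 on spleen control arrays. Xcr1 was at 224 to 267 on lymph node Cre arrays, against 1945 to 3406 on spleen Cre arrays, although cells of both tissues were sorted as XCR1+. The arrays numbered 1 stood apart from the others in all 4 groups, on a second principal component that held 11.2% of the variance. Cd40 did not follow the labels on the arrays numbered 3: for numbers 1, 2 and 3 its ratio of Cre to control was 0.668, 0.4999 and 2.18 in lymph node. In spleen the Cd40 ratio was 0.638, 0.407 and 1.84. The positions of the Cd40 probes relative to the deleted part were not analysed here. Whether the labels of the pairs numbered 3 are exchanged was not tested, so genotype below is the label of an array, and the Irf7 difference in lymph node is also given without these arrays.

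Irf1 and Irf7 differed most between the tissues, in opposite directions. Irf1 was about 7-fold higher in migratory lymph node cDC1, and Irf7 was lower, at 0.172 of the spleen level in Cre mice and 0.302 in control mice. Irf9 was lower in lymph node in Cre mice, by a smaller amount, and Irf5 had lower values that were called when same-numbered arrays were compared. Irf2 and Irf3 were not called. No member was called between the genotype labels, and the member with the smallest p there was Irf7 in lymph node.

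The promoters of Irf1 and Irf7 are shown because these are the 2 members called in both tissue comparisons. Each line gives the 250 bases before a transcription start, 5′ to 3′ on the gene's strand, from RefSeq (GRCm38.p6), with motif matches in capitals. Irf1 lies on the plus strand, with its window at chr11:53769764-53770013, and Irf7 on the minus strand, with its window at chr7:141266425-141266674.
Irf1: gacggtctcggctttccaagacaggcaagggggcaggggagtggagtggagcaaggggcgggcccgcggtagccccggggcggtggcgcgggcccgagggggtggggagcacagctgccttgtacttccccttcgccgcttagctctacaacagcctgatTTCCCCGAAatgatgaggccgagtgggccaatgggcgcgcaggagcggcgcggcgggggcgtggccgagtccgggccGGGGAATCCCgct
Irf7: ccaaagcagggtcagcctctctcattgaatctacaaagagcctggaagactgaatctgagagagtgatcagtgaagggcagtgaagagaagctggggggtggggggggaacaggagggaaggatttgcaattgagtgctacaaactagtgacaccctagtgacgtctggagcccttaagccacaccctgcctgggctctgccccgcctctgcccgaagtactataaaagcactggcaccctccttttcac
The capitals in Irf1 mark a match to the interferon-gamma activated site that STAT dimers bind (TTCNNNGAA, at bases -90 to -82 from the start) and a match to the NF-kB consensus motif (at bases -13 to -4). Both strands were searched for these motifs and for an IRF-binding motif, GAAA followed after any 2 bases by GAAA. The Irf7 window held none of the 3, and no match says only that these letters are not in it. The Irf7 gene reaches base 141266499, so part of its window lies inside the gene, and the Irf5 window lies wholly inside its gene. Bases before the outermost start were searched only in part for Irf7 and not for Irf5. RefSeq lists 8 promoter windows for the 6 members, and the other Irf1 window and those of Irf3, Irf5 and Irf9 held no match either. The Irf2 window held all 3 motifs, with the IRF-binding motif at bases -241 to -232. Among all 32851 promoter windows of this length, 7.02% held TTCNNNGAA, 7.25% the NF-kB consensus and 2.98% the IRF-binding motif.

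Irf1, the activator that interferon-gamma induces most directly, was much higher in lymph node cDC1 of both genotypes. Its intensity was 1239, 1813 and 2234 on lymph node Cre arrays, against 238, 207 and 291 on spleen Cre arrays. On lymph node control arrays it was 1510, 2136 and 2236, against 251, 272 and 268 on spleen control arrays. Every lymph node array lay above every spleen array, as for 22.4% of all genes in Cre mice and 19% in control mice, and within lymph node the arrays numbered 1 were lowest. The log2 difference between lymph node and spleen was 2.82 in Cre mice (SE 0.22, 7.04-fold, limma adjusted p = 3.53e-07). In control mice it was 2.87 (SE 0.22, 7.33-fold, limma adjusted p = 3.07e-07). The dimmer second probe set of Irf1 averaged 144 ± 20.8 on lymph node Cre arrays and 78.1 ± 3.88 on spleen Cre arrays, and 151 ± 6.25 on lymph node control and 81.03 ± 16.6 on spleen control arrays (SD, n = 3). With both probe sets averaged, the log2 difference of Irf1 was 1.84 in Cre mice and 1.896 in control mice. Since these are bulk RNA samples, a smaller share of cells with a transcript and less of it per cell cannot be told apart, for any gene here.

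Irf2, the repressor that opposes IRF1, was somewhat higher in lymph node and did not pass. It was at 541, 637 and 631 on lymph node Cre arrays, against 549, 449 and 561 on spleen Cre arrays. On lymph node control arrays it was at 545, 518 and 516, against 503, 382 and 396 on spleen control arrays. The control groups did not overlap, whereas the Cre groups did. The log2 difference was 0.22 in Cre mice (SE 0.15, limma adjusted p = 0.335) and 0.31 in control mice (SE 0.15, limma adjusted p = 0.183). Without the arrays numbered 1 both were called, at 0.34 (limma adjusted p = 0.0429) and 0.41 (limma adjusted p = 0.0174). With array weights Irf2 was called in control mice, at 0.40 (limma adjusted p = 0.00324).

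Irf7, the amplifier of type I interferon, was far lower in lymph node. Its intensity was 168, 174 and 170 on lymph node Cre arrays, against 959, 1079 and 941 on spleen Cre arrays. It was 216, 278 and 350 on lymph node control arrays, against 873, 874 and 996 on spleen control arrays. The tissues did not overlap in either genotype, as for 18.7% of all genes in Cre mice and 17.3% in control mice with lymph node lower, and the lymph node Cre arrays lay closest together of the 4 groups. The log2 difference was -2.54 in Cre mice (SE 0.17, limma adjusted p = 8.35e-08) and -1.73 in control mice (SE 0.17, limma adjusted p = 3.15e-06). For same-numbered arrays the ratio of lymph node to spleen was 0.176, 0.161 and 0.180 in Cre mice and 0.247, 0.318 and 0.352 in control mice.

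Plasmacytoid dendritic cells are known for high Irf7, and the summed level of their markers was not lower in lymph node. Of 11 listed markers 8 were measured, and none lay at background. Their summed intensity was 2946 to 3909 on lymph node Cre and 3216 to 3961 on lymph node control arrays, against 2552 to 3257 on spleen Cre and 2403 to 3156 on spleen control arrays. The surface receptor Siglech, a defining marker, was at 63.2 to 73.7 on lymph node Cre and 67.3 to 91.3 on lymph node control arrays, against 56.7 to 68.0 on spleen Cre and 61.0 to 66.5 on spleen control arrays. The chemokine receptor Ccr9, another marker of theirs, ran with Irf7, at 45.2 to 49.3 on lymph node Cre and 36.2 to 50.5 on lymph node control arrays, against 248 to 341 on spleen Cre and 263 to 279 on spleen control arrays. Pacsin1 was also lower in lymph node, at 111 to 136 on lymph node Cre arrays, against 166 to 189 on spleen Cre arrays. Of the 8 markers, limma called 2 higher and 2 lower in lymph node in Cre mice and 3 higher and 2 lower in control mice, and the brightest, Bst2, made up most of the sum. Of 12 macrophage and monocyte markers 10 were measured, and limma called 1 higher and 4 lower in lymph node in Cre mice and 1 higher and 3 lower in control mice. Their summed intensity was 1062 to 1265 on lymph node Cre and 1123 to 1280 on lymph node control arrays, against 2656 to 4352 on spleen Cre and 2599 to 4289 on spleen control arrays. In spleen most of the sum came from Cd14 and Lyz2, and Vcam1 ran the other way, at 563 to 599 on lymph node Cre arrays, against 201 to 269 on spleen Cre arrays. Lyz2 was at 59.9 to 97.0 on lymph node Cre arrays, against 886 to 1184 on spleen Cre arrays, while C1qa was at 54.8 to 75.2 over all 4 groups. Of 7 measured T cell markers limma called 5 higher in lymph node in Cre mice and 4 in control mice, with sums of 870 to 1628 on lymph node Cre and 1014 to 1613 on lymph node control arrays, against 562 to 753 on spleen Cre and 628 to 663 on spleen control arrays. The part of these cells in the tissue differences was not tested. The summed levels of markers of cDC2, B cells, NK cells, neutrophils and stromal and endothelial cells overlapped between the tissues in both genotypes. Single markers differed, in opposite directions within a list. In each genotype limma called 1 cDC2 marker higher and 2 lower in lymph node. It called 1 higher and 1 lower among B cell markers, and likewise among stromal and endothelial markers. The B cell marker Ms4a1 was at 32.7 to 40.5 on lymph node Cre and 187 to 251 on spleen Cre arrays. Blnk was at 201 to 349 and 38.0 to 50.1. The summed levels of Langerhans cell and keratinocyte markers were 418 to 522 on lymph node Cre and 528 to 744 on spleen Cre arrays. On control arrays they were 419 to 486 in lymph node and 462 to 755 in spleen. Of these 6 markers, 5 had a difference above 0 in each genotype. In lymph node limma called 3 higher and 1 lower in Cre mice and 2 higher and 1 lower in control mice. The lower sum came from Cd207, at 124 to 219 on lymph node Cre and 337 to 528 on spleen Cre arrays. Epcam ran the other way, at 75.0 to 92.3 and 32.6 to 34.5. The 2 measured erythroid markers summed to 102 to 115 on lymph node Cre and 102 to 134 on lymph node control arrays, against 123 to 130 on spleen Cre and 124 to 156 on spleen control arrays. The sums of both lists overlapped between the tissues in control mice and not in Cre mice.

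**Figure D1:**
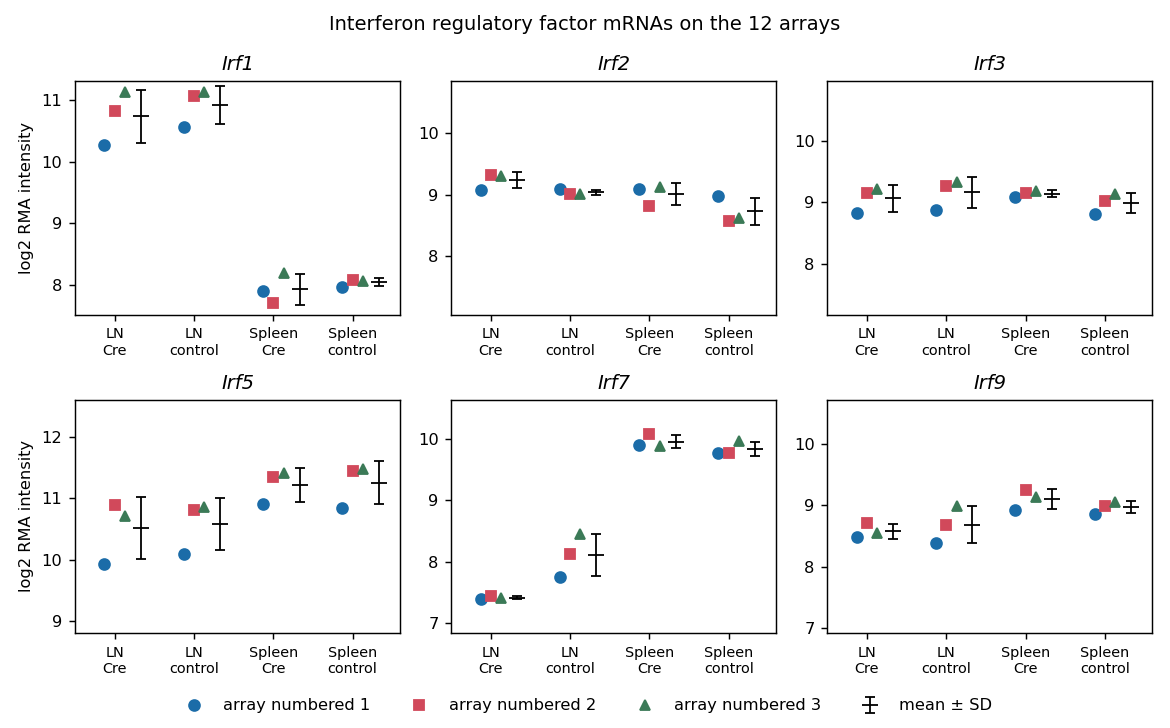
Log2 intensity of each of the 6 genes on each array, by group, with marker shape and colour for the array number and bars for the group mean ± SD (n = 3). All panels span the same height of log2 units. Irf1 sits higher on every lymph node (LN) array and Irf7 on every spleen array, while Irf2, Irf3 and Irf9 span a narrow range.

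Irf3, which is present before infection and starts the first wave of interferon, had much the same level everywhere. It was at 452, 572 and 597 on lymph node Cre arrays, against 543, 570 and 584 on spleen Cre arrays, and at 471, 618 and 646 on lymph node control arrays, against 450, 522 and 561 on spleen control arrays. Neighbouring groups overlapped throughout the order of its levels. The 95% interval of the log2 difference between lymph node and spleen ran from -0.43 to 0.28 in Cre mice and from -0.19 to 0.53 in control mice. With array weights Irf3 was called higher in lymph node in control mice, at 0.23 (limma adjusted p = 0.0414), and not in Cre mice.

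Irf5, which acts downstream of Toll-like receptors on inflammatory cytokine genes, had lower values in lymph node, which were called in some fits and not in others. Its intensity was 979, 1887 and 1678 on lymph node Cre arrays, against 1912, 2599 and 2712 on spleen Cre arrays. It was 1094, 1792 and 1843 on lymph node control arrays, against 1836, 2782 and 2829 on spleen control arrays. The Cre groups did not overlap, and the control groups overlapped narrowly. The arrays numbered 1 were the lowest of their group in all 4 groups. In the fit of all 12 arrays with equal weights and no block Irf5 was not called, with log2 differences of -0.71 in Cre mice (SE 0.27, limma adjusted p = 0.0718) and -0.67 in control mice (SE 0.27, limma adjusted p = 0.0982). With the replicate block, which compares same-numbered arrays, the differences were the same, the SE was 0.09 and both were called (limma adjusted p = 2.37e-05 and 4.14e-05). Without the arrays numbered 1 it was also called in both (limma adjusted p = 0.000166 in Cre mice and 8.70e-05 in control mice), as it was with array weights (limma adjusted p = 0.00222 and 0.000768). Leaving out single arrays also brought it below the threshold in some fits, to a limma adjusted p of 0.0416 to 0.0483. The ratio of lymph node to spleen was 0.512, 0.726 and 0.619 for numbers 1, 2 and 3 in Cre mice and 0.596, 0.644 and 0.652 in control mice.

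Irf9, the DNA-binding part of ISGF3, was lower in lymph node and was called in Cre mice. It was at 357, 419 and 372 on lymph node Cre arrays, against 482, 607 and 562 on spleen Cre arrays, with no overlap. On control arrays it was at 335, 409 and 508 in lymph node, against 466, 507 and 531 in spleen, and these overlapped. The log2 difference was -0.52 in Cre mice (SE 0.17, 0.697-fold, limma adjusted p = 0.0319) and -0.28 in control mice (SE 0.17, limma adjusted p = 0.285). The 2 differences did not differ from each other beyond error, at -0.24 (SE 0.24, limma adjusted p = 0.9996). The call in Cre mice was lost without spleen Cre replicate 2 or 3 (limma adjusted p = 0.129 and 0.0970), without lymph node Cre replicate 1 or 3 (0.0839 and 0.0854), and without all arrays numbered 2 or 3 (0.246 and 0.234). It was also lost when the arrays were quantile normalised again (0.0511), and it was stronger with the replicate block (0.00234). In control mice Irf9 was called with array weights alone, at -0.29 (limma adjusted p = 0.0159).

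Lymph node against spleen, limma thus called 3 of the 6 members in Cre mice, where 28.3% of all genes were called, with Irf1 higher and Irf7 and Irf9 lower. In control mice it called 2 of 6, Irf1 and Irf7, where 26.1% of all genes were called. With the replicate block the counts were 4 and 3, through Irf5. Over all genes, the number at an unadjusted limma p under 0.05 also rose with the block. It went from 7454 to 9591 in Cre mice and from 6639 to 8328 in control mice. The tissue comparisons of the 2 genotypes share no arrays. They are not independent, since they use the same estimate of spread and same-numbered arrays deviated together across genotypes. Of the rest of the family, Irf4, which is known for its part in dendritic cell migration, was higher in lymph node (log2 difference 1.55 in Cre mice and 1.21 in control mice, limma adjusted p = 0.000303 and 0.00219). Irf8, the factor that cDC1 need to develop, was at -0.36 and -0.07 and was not called.

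**Figure D2:**
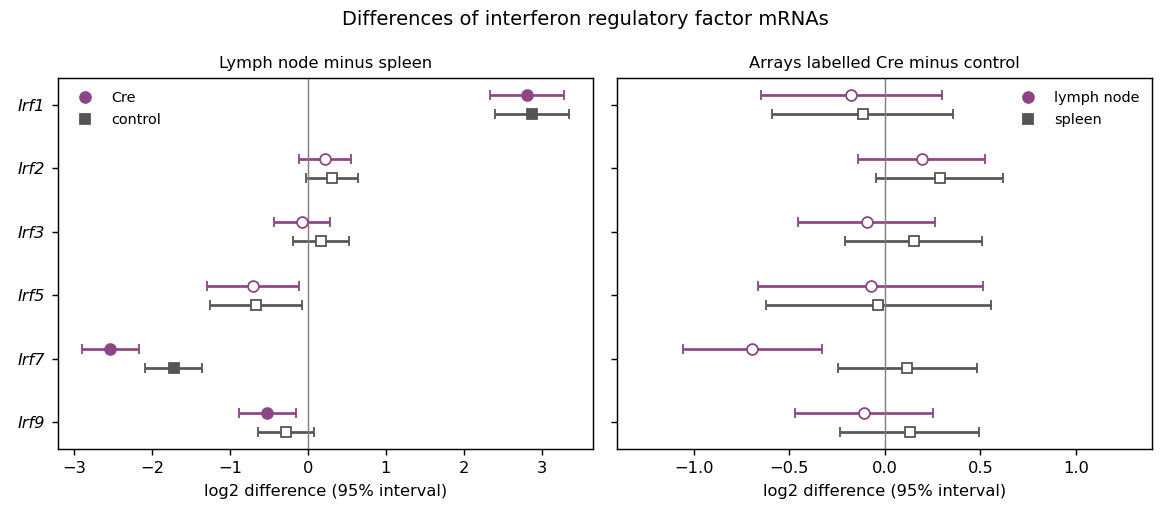
Log2 differences with 95% intervals from limma for the 6 genes: lymph node minus spleen in each genotype on the left, and arrays labelled Cre minus control in each tissue on the right, on a narrower scale. Filled markers have an adjusted p under 0.05 without the replicate block. Irf1 and Irf7 are filled in both genotypes on the left, Irf9 in Cre mice alone, and no marker is filled on the right.

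Between the genotype labels limma called none of the members and 0% of all genes in either tissue, with 2.02% of genes in lymph node, 1.79% in spleen and 1.64% for the difference of these effects at an unadjusted p under 0.05. Irf7 in lymph node had the seventh smallest p of all genes, a rank of 7 that became 253 without the arrays numbered 3, 108 without those numbered 2 and 2 without those numbered 1. With single lymph node arrays left out the rank ran from 1 to 61. Its groups did not overlap: each Cre array, at 168, 174 and 170, lay below each control array, at 216, 278 and 350. Groups that did not overlap with Cre lower made up 2.71% of all genes. The log2 difference was -0.69 (SE 0.17, 0.618-fold, limma adjusted p = 0.9997). With the replicate block the limma adjusted p was 0.465, and over all alternatives the adjusted p ran from 0.0530 to 1. The ratio of Cre to control was 0.779, 0.627 and 0.484 for numbers 1, 2 and 3. The lowest of these ratios belongs to the pair in which Cd40 ran against the labels, with a Cd40 ratio of 2.18. Without lymph node control replicate 3 the Irf7 difference was -0.52 and without lymph node control replicate 1 it was -0.87. Without any of the arrays numbered 3 it was -0.52. Summed plasmacytoid and T cell markers, given above, overlapped between the lymph node groups. Most of the plasmacytoid sum was Bst2, which is also on the list of ISGF3 and IRF7 targets used below. The part of these cells in the Irf7 difference between genotype labels was not tested.

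In spleen Irf7 was at 959, 1079 and 941 on Cre arrays, against 873, 874 and 996 on control arrays, and the groups overlapped (log2 difference 0.12, SE 0.17, limma adjusted p = 0.9998). The genotype difference in lymph node minus that in spleen was -0.81 for Irf7 (SE 0.24, limma adjusted p = 0.9996), so a difference between tissues did not pass either. For the other 5 members the intervals of the genotype difference all held 0. Irf2 was the highest, at 0.29 in spleen (95% interval -0.05 to 0.62) and 0.19 in lymph node (-0.14 to 0.53). Irf1 was at -0.12 in spleen (-0.59 to 0.36) and -0.17 in lymph node (-0.65 to 0.30), and Irf5 at -0.03 (-0.62 to 0.56) and -0.07 (-0.66 to 0.52). Irf3 was at 0.15 in spleen (-0.21 to 0.51) and -0.09 in lymph node (-0.45 to 0.27), and Irf9 at 0.13 (-0.23 to 0.49) and -0.11 (-0.47 to 0.25).

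Within groups, the arrays numbered 1 were low for most members. They also had the lowest summed cDC1 markers of their group in all 4 groups. In lymph node they had the highest summed T cell markers, at 1628 in Cre and 1613 in control mice. In spleen they had the highest summed macrophage and monocyte markers, at 4352 in Cre and 4289 in control mice. The part of this in their low values was not tested. Irf5 on these arrays lay 0.32 to 0.57 log2 units below the mean of its group, a sign shared by all 4 groups, with values of -0.57, -0.49, -0.32 and -0.41. Irf3 lay at -0.25, -0.28, -0.06 and -0.18 and Irf9 at -0.10, -0.30, -0.18 and -0.10, in the order lymph node Cre, lymph node control, spleen Cre and spleen control. Irf2 did not share this, at -0.15, 0.05, 0.09 and 0.25. The deviations of Irf7 and Irf9 from their group means had a Pearson r of 0.89 over the 12 arrays, and those of Irf3 and Irf5 one of 0.94. These are descriptions, since arrays of 1 number share deviations across the genome. The median deviation of 31 genes known as targets of ISGF3 and IRF7 was set beside that of Irf7 in each group. On lymph node Cre arrays the targets were at -0.07, 0.01 and 0.05 and Irf7 at -0.02, 0.03 and -0.01. On lymph node control arrays the targets were at -0.17, 0.06 and 0.17 and Irf7 at -0.35, 0.01 and 0.34. On spleen Cre arrays the targets were at -0.034, 0.094 and -0.00059 and Irf7 at -0.05, 0.12 and -0.08. On spleen control arrays the targets were at 0.013, -0.026 and -0.0052 and Irf7 at -0.06, -0.06 and 0.13, so the signs differed on numbers 1 and 3 there and on number 3 of the lymph node Cre arrays.

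**Figure D3:**
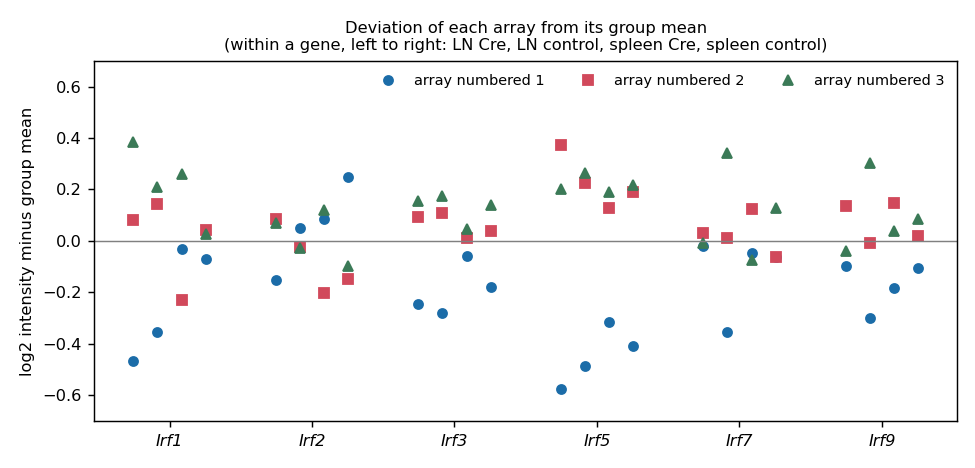
Log2 intensity of each array minus the mean of its group, for the 6 genes, with the 4 groups side by side within each gene and marker shape and colour for the array number. The arrays numbered 1 lie below 0 in all 4 groups for Irf1, Irf3, Irf5, Irf7 and Irf9, and in 1 group for Irf2. The widest spread of Irf7 is in the lymph node control group.

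Genes that work with the IRFs differed between the tissues in both directions. Among targets of ISGF3 and IRF7, more were called higher than lower in lymph node: of 31 measured, limma called 13 higher and 5 lower in Cre mice and 17 higher and 4 lower in control mice, with median log2 differences of 0.33 and 0.44. Over all genes, 13.1% were called higher and 15.2% lower in Cre mice, 12.9% higher and 13.2% lower in control mice, and the medians were 0.07 and 0.03. The largest rises in control mice were of Ifit1, which binds viral RNA (log2 difference 2.31, SE 0.16), Herc6, which attaches ISG15 to proteins (2.16, SE 0.18), and Usp18, which removes ISG15 and damps interferon signalling (2.14, SE 0.17). The largest falls were of the chemokine Cxcl10 (-1.82, SE 0.27), Trim30a (-1.28, SE 0.14) and Dhx58, a relative of RIG-I (-1.01, SE 0.23). The limma adjusted p of these 6 genes was 0.00432 or smaller.

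Among targets of IRF1, too, more were called higher than lower. Of 27 measured, limma called 14 higher and 4 lower in Cre mice and 15 higher and 4 lower in control mice, with medians of 0.61 and 0.60. Il15ra and Il15, which together present IL-15 to T and NK cells, were higher in control mice by 4.05 (SE 0.18) and 3.51 (SE 0.22), and the guanylate-binding protein gene Gbp5 by 3.43 (SE 0.24). Ciita, the master activator of MHC class II genes, was lower (-3.63, SE 0.36), as were the chemokines Cxcl9 (-2.90, SE 0.29) and Cxcl10. Several of these genes are induced by other factors too, and their list was not tested as a set.

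Of 23 measured sensors, adaptors and kinases that lead to IRF activation, limma called 8 higher and 5 lower in Cre mice and 6 higher and 5 lower in control mice. The largest falls in control mice were of Tlr3, the endosomal receptor for double-stranded RNA (-4.57, SE 0.22), 5430427O19Rik, the adaptor TASL that recruits IRF5 (-1.54, SE 0.17), and Myd88, the adaptor through which most Toll-like receptors reach IRF5 and IRF7 (-1.48, SE 0.21). The largest rises were of Tank, a scaffold of the kinase TBK1 (1.81, SE 0.23), Ikbkb, a kinase of the NF-kB pathway that also phosphorylates IRF5 (1.66, SE 0.21), and Ddx58, the RNA sensor RIG-I (1.65, SE 0.21). Of 20 measured interferon receptors, JAKs, STATs and their inhibitors, limma called 7 higher and 1 lower in Cre mice and 9 higher and 2 lower in control mice. Stat4 and Stat5a were higher by 1.75 (SE 0.33) and 1.26 (SE 0.18) in control mice. The interferon-gamma receptor chain Ifngr1 was lower (-3.49, SE 0.29), as was the signalling inhibitor Socs3 (-0.50, SE 0.13). Of 8 measured interferon genes limma called 1 in each genotype, the lambda interferon gene Ifnl2, higher by 0.88 in control mice (SE 0.16). Of 10 measured co-regulators, limma called 2 higher and 3 lower in Cre mice and 3 higher and 3 lower in control mice. Ube2l6, the enzyme that conjugates ISG15, was higher by 3.18 (SE 0.18), with Batf3, a partner of IRF8 in cDC1, at 0.71 (SE 0.14) and Trim21 at 0.68 (SE 0.19). Irf2bp2, a co-repressor that binds IRF2, was lower (-0.84, SE 0.17), with Batf at -0.64 (SE 0.16) and Spi1, the factor PU.1, at -0.63 (SE 0.18).

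**Figure D4:**
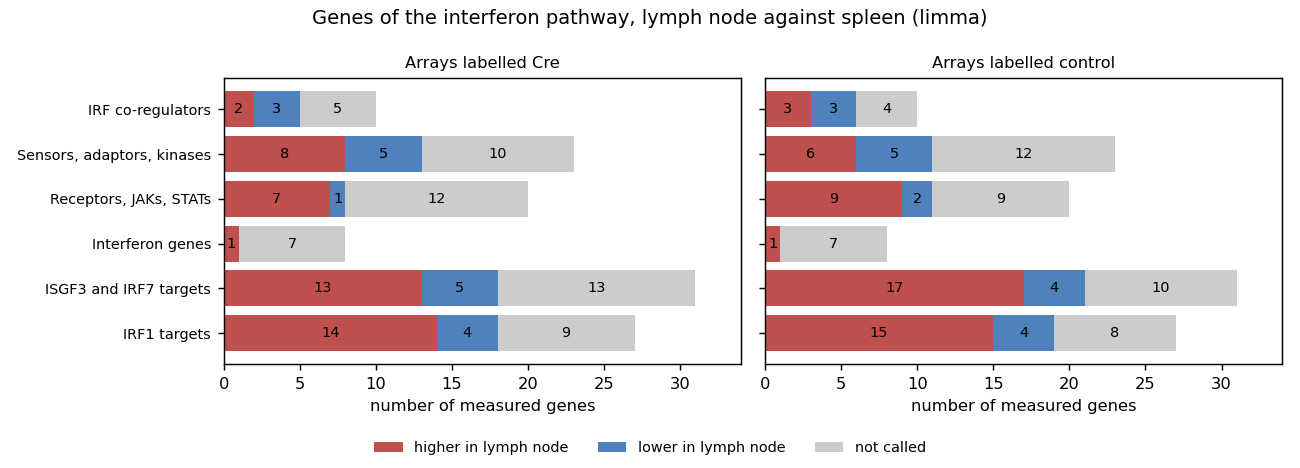
Number of measured genes called by limma as higher or lower in lymph node than in spleen, or not called, for 6 lists of genes that act with the IRFs, in each genotype. Among ISGF3 and IRF7 targets, 13 were higher and 5 lower in Cre mice and 17 higher and 4 lower in control mice.

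Between the genotype labels none of these genes passed. In lymph node, 26 of the 31 ISGF3 and IRF7 targets had a log2 difference below 0 (median -0.16, against -0.01 over all genes), and 4 had an unadjusted limma p under 0.05. In spleen 14 of 31 lay below 0 (median 0.03, against -0.01 over all genes). For numbers 1, 2 and 3 in lymph node, the mean log2 level of these targets was 7.76, 7.79 and 7.86 on Cre arrays. On control arrays it was 7.75, 8.02 and 8.14, so the groups overlapped. The widest gap was in the pair numbered 3, where Cd40 ran against the labels. The share of all genes below 0 was not analysed here, and neither these targets nor those of IRF1 were tested as a set. Ifit1 was at -0.58 (SE 0.16), Ddx60 at -0.25 (SE 0.08) and Ddx58 at -0.52 (SE 0.21) in lymph node. IRF1 targets lay below 0 for 22 of 27 genes in lymph node and 21 of 27 in spleen (medians -0.08 and -0.07), with Il12a at -0.30 (SE 0.13) in lymph node and Il12b at -0.61 (SE 0.27) in spleen. Among the sensors, Ticam2 was at -0.41 in spleen (SE 0.11) and Tlr9 at 0.32 (SE 0.15), and Cgas was at -0.21 in lymph node (SE 0.10). Among receptors and inhibitors, Ifnlr1 was at -0.25 (SE 0.095) and Socs1 at -0.35 (SE 0.16) in lymph node.

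Likeness was measured as Pearson's r of log2 values over the 12 arrays, among 17512 other genes whose mean lay above background. It mostly follows the tissue difference for Irf1 and Irf7. Irf1 was most like Tspan3, Gbp5 and Fscn1 (r of 0.998, 0.998 and 0.997), and Fscn1 encodes fascin, the actin bundler of migrating dendritic cells. Irf7 was most like Alg1, Trim30a, Nfx1, Gpat4 and Hspa5 (r of 0.984 to 0.989). Irf5 was closest to Tra2b (0.993), Irf9 to Sgk3 (0.977), Irf3 to Kmt5c (0.971) and Irf2 to Dmgdh (0.879). By deviations from the group means, Irf7 was closest to Naa35 (0.949), Lsm14b, Pum2, Map1s and Galnt12 (0.913 to 0.922).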

How the data were processed

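RNA of sorted cDC1 was labelled with the WT Pico kit, per the labels' protocols, and each array gave 1 intensity per probe set. The authors' deposited intensities are RMA values from the program Affymetrix Expression Console (no versions are listed), as the submitters' processing notes and the labels name them. Per the labels no scale was stated; they lay between 8.23 and 20398, so they were read as linear and log2 was taken. Of 28853 probe sets, 21789 carried a single symbol of the platform annotation, updated through Entrez numbers (21698 matched), and 19938 genes remained after keeping the brightest probe set of each.

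Means of 4 groups were fitted to all 12 arrays in limma 3.58.1 (R 4.3.3) with a variance trend, two-sided, with adjustment over all genes in each comparison, after the script had been tested on simulated data. The number of arrays limits the precision. Same-numbered arrays deviated together (r of 0.293 to 0.729 across genes, median -0.449 and highest 0.557 for different numbers), which met the rule for pairing, so the titles' numbers were taken to pair arrays and the replicate block was run as an alternative. Deviations from the mean of 3 arrays sum to 0, which pushes r for different numbers below 0, so the gap to same numbers is partly built in. Arrays numbered 2 and 3 also correlated positively with each other, so the numbers mainly set apart the arrays numbered 1. The members, the pathway and marker lists and the tests were chosen with earlier results of these data known; named list genes had the largest called differences without overlap in control mice or the smallest p between genotypes. The name Ddx58 stands for RIG-I and 5430427O19Rik for TASL in the annotation. Listed genes without a single-symbol probe set were not analysed here. Promoters came from RefSeq (GRCm38.p6). Plots used matplotlib 3.10.9 (Python 3.11.15).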

Additional observations from a re-analysis of the deposited data

Results flagged for a closer look

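Irf3 was the member whose genotype difference ran one way in each lymph node pair and the other way in each spleen pair of same-numbered arrays. The ratio of Cre to control was 0.960, 0.927 and 0.925 for numbers 1, 2 and 3 of the lymph node pairs. Among the spleen pairs it was 1.21, 1.09 and 1.04. The difference between the 2 effects was -0.25 on the log2 scale (SE 0.24, limma adjusted p = 0.9996), so it did not pass a test. The share of all genes with opposed signs of this kind was not analysed here.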

How the results depend on the processing

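In the tissue comparisons Irf1 and Irf7 kept their direction and their call under all alternatives run. The genotype comparisons called no member under any of them. With arrays left out, the tissue difference of Irf7 ran from -2.58 to -2.48 in Cre mice and from -1.897 to -1.55 in control mice. Of 780 refits of single members, 719 kept direction and side of the threshold, 7 lost a call, 22 gained one and 32 changed sign, the last among differences that were not called.

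With array weights limma called 51 genes between genotypes in spleen, 2 in lymph node and 3 for the difference of these effects, 9020 between tissues in control mice and 8933 in Cre mice, and 6 members in control mice. With the replicate block the calls of Irf5 were gained, as given above, and no other call of a member changed. The 2 fits that join the block with leaving out a number were chosen after seeing the data. With the block and no arrays numbered 1, 4 members were called in control mice and 5 in Cre mice. Between tissues, 8095 genes in control and 9232 in Cre mice then had an unadjusted limma p under 0.05. In the fit of all 12 arrays without the block these gene counts were 6639 and 7454. With the block and no arrays numbered 3 limma called 1 gene between genotypes in lymph node.

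Sign changes were as follows. Irf1's genotype difference in lymph node minus that in spleen turned to 0.04999 with repeated quantile normalisation and 0.0159 with the block and no arrays numbered 1, and Irf3's tissue difference in Cre mice to 0.0412 and 0.0192. Irf5's genotype difference in spleen turned to 0.00495 with median centring, its difference between tissues to 0.0492 with the block and no arrays numbered 1, and Irf9's genotype difference in lymph node to 0.0630 with the block and no arrays numbered 3.

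Leaving out single arrays or all arrays of a number, the tissue comparison called 3081 to 7684 genes and 2 to 5 members in Cre mice and 2865 to 6906 genes and 2 to 4 members in control mice, with fewer arrays in each fit. The genotype differences in lymph node then ran from -0.37 to 0.0589 for Irf1, -0.23 to 0.0294 for Irf3, -0.32 to 0.21 for Irf5 and -0.26 to 0.0630 for Irf9, and those in spleen from -0.25 to 0.0205 for Irf1 and -0.24 to 0.12 for Irf5. That difference of effects ran from -0.25 to 0.17 for Irf1 and -0.28 to 0.25 for Irf5, and the tissue difference of Irf3 in Cre mice from -0.15 to 0.0488. Where not given above, the cause of these changes was not tested.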
